A study of Homo sapiens with 12 samples.

Results

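The expression of 6 genes was examined across the abemaciclib and *RB1* knockout experiment in ZR-75-1, an oestrogen receptor-positive human breast cancer cell line: the TOB/BTG antiproliferative genes *TOB1*, *TOB2*, *BTG1*, *BTG2* and *BTG3*, and the zinc-finger gene *KLF10*. They were chosen by symbol, with earlier results of these data known. All 6 genes were found among the 60612 gene rows of the count table. RNA was sequenced from 12 samples in 4 groups of 3 replicates, which the series describes as biological replicates. The sgControl cells had received a control guide RNA, and the *RB1*-knockout cells had been edited with CRISPR–Cas9 in *RB1*, which encodes the retinoblastoma protein Rb. Both genotypes received either 500 nM abemaciclib, which blocks CDK4 and CDK6 and thereby phosphorylation of Rb, or the same volume of its solvent DMSO, in each case over 5 days. All 4 groups thus shared the cell line and the culture medium. The study's methods describe sorting edited cells one to a well, but how many clones the ZR-75-1 knockout cells came from is not given. A difference between genotypes and a difference between clones cannot be told apart.

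TOB and BTG proteins share an amino-terminal domain through which they bind the deadenylase subunits of the CCR4–NOT complex, the main cytoplasmic machinery that shortens the poly(A) tails of messenger RNAs. TOB1 and TOB2 also carry motifs for the poly(A)-binding protein, and forced expression of family members slows proliferation in many cell types. KLF10, first described as a TGF-beta-inducible early gene, is a transcriptional repressor that recruits SIN3 co-repressors to GC-rich promoter elements. Rb, when it is not phosphorylated, holds E2F transcription factors inactive, and CDK4/6 inhibition was combined with *RB1* loss to ask which responses to the drug depend on Rb.

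Total counts ranged from 39907318 to 81636393 per library. Within groups, libraries differed by a chi-square of 3.49 to 18.1 per gene, except that replicate 1 of sgControl cells in DMSO stood apart from replicates 2 and 3 (50.2 and 105.1). Without that library the genes called in the knockout response numbered 6691 in place of 5571, and the calls of the 6 genes that changed without it in the 5 main comparisons are given with each gene. *RB1* itself had 2090 to 7543 raw counts in sgControl libraries and 29 to 63 in knockout libraries. Mitochondrial genes held 2.82% to 4.13% of the counts in DMSO and 5.44% to 8.53% in abemaciclib, and the part of this difference in the results was not tested. The luminal markers *ESR1*, *GATA3*, *FOXA1*, *KRT8*, *KRT18*, *KRT19* and *EPCAM* were all present, with a summed level of 171300 to 248700 normalized counts per kilobase in every library. Their levels were not constant: in sgControl cells on abemaciclib 4 rose and 3 fell (25.0% and 24.8% of all genes tested). The log2 changes ran from −0.80 ± 0.11 for *KRT18* to 0.60 ± 0.10 for *KRT19*. Of 7 markers of other cell types, *PTPRC*, *PECAM1*, *COL1A2*, *KRT5* and *KRT14* had at most 6 raw counts in any library, whereas *COL1A1* had 1375 to 3797 and *ACTA2* 129 to 795. The sum of these 7 markers was 336.9 to 384.0 normalized counts per kilobase in 3 groups and 425.6 to 450.2 in *RB1*-knockout cells in abemaciclib. Within this sum *ACTA2* fell by 2.08 ± 0.13 on the log2 scale in sgControl cells on abemaciclib (adjusted p = 1.75e-52) and *COL1A1* rose by 0.37 ± 0.07 (adjusted p = 6.72e-08). In bulk RNA, fewer cells of a type and less RNA per cell cannot be told apart.

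Because the genes moved in opposite directions, their promoters were compared in RefSeq windows of 250 bases before to 50 bases after a transcription start (assembly GRCh38.p14). Windows were matched for 5 of the 6 genes, all but *KLF10*, and *TOB1* had 2 windows. The sequences below belong to the 2 genes that rose most and the 2 that fell most in sgControl cells: *TOB1* (chr17:50866305-50866604, minus strand), *BTG2* (chr1:203305269-203305568, plus strand), *BTG1* (chr12:92145797-92146096, minus strand) and *BTG3* (chr21:17612852-17613151, minus strand). Capitals mark the E2F-type 8-mer TTTCCCGC and the GC box GGGCGG on either strand, and each line is read 5′ to 3′ along the gene.
TOB1: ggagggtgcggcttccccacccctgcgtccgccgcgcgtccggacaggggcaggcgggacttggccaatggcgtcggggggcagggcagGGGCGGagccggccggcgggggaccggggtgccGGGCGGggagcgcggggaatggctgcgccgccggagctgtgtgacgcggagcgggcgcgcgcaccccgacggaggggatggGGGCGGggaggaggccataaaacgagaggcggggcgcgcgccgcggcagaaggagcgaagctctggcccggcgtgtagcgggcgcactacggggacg
BTG2: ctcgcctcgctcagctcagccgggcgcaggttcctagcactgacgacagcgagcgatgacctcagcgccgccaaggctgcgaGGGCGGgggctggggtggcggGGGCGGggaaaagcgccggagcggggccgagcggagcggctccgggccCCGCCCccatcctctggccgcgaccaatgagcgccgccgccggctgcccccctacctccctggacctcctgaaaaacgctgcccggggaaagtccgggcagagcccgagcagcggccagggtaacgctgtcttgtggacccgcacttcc
BTG1: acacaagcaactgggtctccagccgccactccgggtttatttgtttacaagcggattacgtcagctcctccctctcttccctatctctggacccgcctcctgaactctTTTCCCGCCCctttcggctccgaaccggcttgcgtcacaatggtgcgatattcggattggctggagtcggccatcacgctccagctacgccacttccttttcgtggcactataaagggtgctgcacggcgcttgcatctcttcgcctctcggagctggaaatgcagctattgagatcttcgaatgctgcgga
BTG3: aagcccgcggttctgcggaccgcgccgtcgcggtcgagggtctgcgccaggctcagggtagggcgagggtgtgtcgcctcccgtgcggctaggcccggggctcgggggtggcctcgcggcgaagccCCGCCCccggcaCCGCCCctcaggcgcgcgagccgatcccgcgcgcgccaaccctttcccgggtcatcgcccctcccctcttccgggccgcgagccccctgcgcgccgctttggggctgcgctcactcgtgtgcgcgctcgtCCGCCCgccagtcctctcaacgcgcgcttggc

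Among the 6 windows of these genes, only that of *BTG1* held one of the 4 E2F-type 8-mers searched (TTTCCCGC, TTTGGCGC, TTTCGCGC and TTTGCCGC, both strands), and such an 8-mer was found in 3.3% of all 34796 windows. The match, TTTCCCGC at 142 bases before the start, overlapped a GC box. *BTG3*, which had the largest fall in sgControl cells, had none of these 8-mers and 3 GC boxes. Only exact matches to the 8-mers were counted, and near matches were not searched. GC boxes occurred in 44.9% of all windows and in 5 of the 6 shown by these genes, with the upstream *TOB1* window as the exception. The cell cycle element TTTGAA (15.2% of windows), the cyclic AMP element TGACGTCA (1.84%), the oestrogen response element (0.0575%), the serum response element (1.3%) and a single p53 decamer, of which a p53 binding element holds a pair (6.65%), matched none of the 6 windows. These matches describe letters in the windows and not binding.

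All 6 genes changed on abemaciclib when *RB1* was intact, 3 up and 3 down, while 4 rose and none fell when *RB1* was deleted. In sgControl cells *TOB1*, *BTG2* and *TOB2* rose by 1.97-fold, 1.86-fold and 1.61-fold, and *BTG3* was 2.59-fold lower, with smaller falls of *BTG1* and *KLF10*. In knockout cells *KLF10* rose by 1.59-fold and the 3 rising family members rose again by less. Across all genes tested in sgControl cells, 25.0% were called higher and 24.8% lower at an adjusted p-value under 0.05. In knockout cells the shares of all genes tested were 14.9% higher and 15.1% lower. The median log2 fold change of the 6 genes was 0.25 in sgControl cells and 0.26 in knockout cells, against 0.006 and 0.017 over all genes tested.

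**Figure D1:**
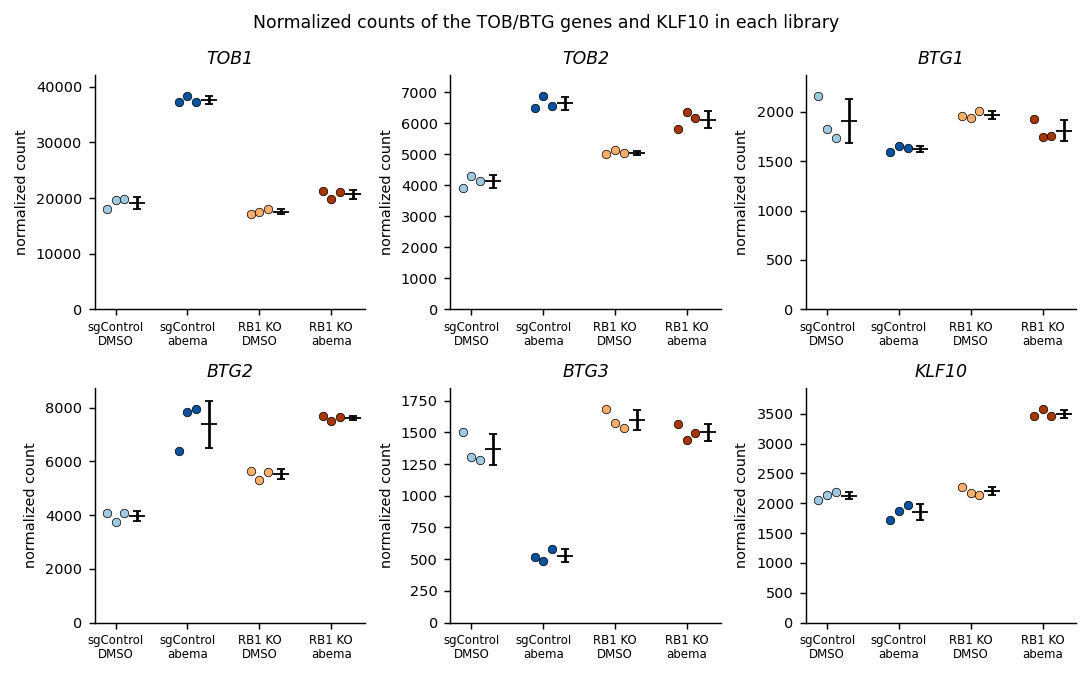
Normalized counts (raw counts divided by the size factor of the library, linear axes from 0) of the 6 genes in each of the 12 libraries; points are libraries and the bar beside them is the mean ± SD of 3 replicates. *TOB1* stands apart in sgControl cells in abemaciclib, where its 3 libraries lie between 37203 and 38382, *BTG3* is low in the same group (482.6 to 581.4), and *KLF10* is high in *RB1*-knockout cells in abemaciclib (3461 to 3579).

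Per unit of length, *TOB1* was the most abundant of the 6 genes in every group. Its mean over the 12 libraries was 9414.3 normalized counts per kilobase of merged exons, higher than 98.8% of the 17486 genes compared. *BTG2* followed at 2218.4 (93.6%) and *TOB2* at 1263.7 (88.8%), and *KLF10*, *BTG3* and *BTG1* were at 633.4, 541.6 and 376.8. *TOB1* therefore held most of the summed level of the 6 genes per kilobase, with 65.84% ± 1.65 (SD, n = 3) in untreated sgControl cells and 73.96% ± 1.31 after abemaciclib. In *RB1*-knockout cells its share was 58.95% ± 0.87 in DMSO and 57.3% ± 0.97 in abemaciclib, so that the 3 libraries of sgControl cells in abemaciclib had the highest *TOB1* share. The share of *BTG2* was 12.49% ± 0.76 without and 13.25% ± 1.27 with abemaciclib in sgControl cells, and 16.96% ± 0.51 and 19.29% ± 0.22 in knockout cells. *BTG3* made up 5.16% ± 0.61 in sgControl cells in DMSO and 1.14% ± 0.12 in abemaciclib. With the longest transcript as the length, the mean level of *BTG3* was 840.3 in place of 541.6 per kilobase, which placed it above *KLF10* on that average. The labels name a directional whole-transcript kit and the study's general methods a 3′ kit, under which counts would not scale with length.

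**Figure D2:**
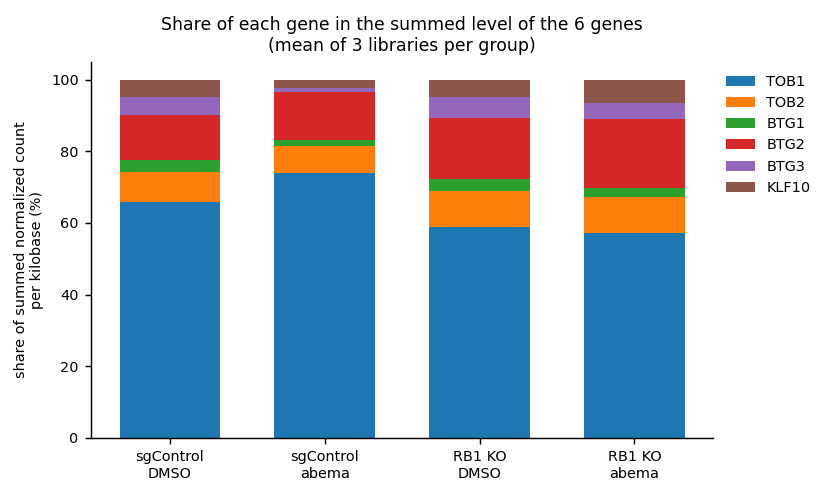
Share of each gene in the summed normalized count per kilobase of the 6 genes, as the mean of 3 libraries in each of the 4 groups (stacked bars, percent). *TOB1* takes 65.84% and 73.96% of the sum in sgControl cells in DMSO and in abemaciclib, and 58.95% and 57.3% in *RB1*-knockout cells.

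*TOB1* encodes the founding member of the TOB branch, a protein that links CCR4–NOT to poly(A)-binding protein. The gene lies on chromosome 17, positions 50862223 to 50867978, minus strand (GRCh38, GENCODE release 44). Its normalized counts were 17957, 19569 and 19834 in the 3 libraries of sgControl cells in DMSO and 37227, 38382 and 37203 in those in abemaciclib. In *RB1*-knockout cells they were 17105, 17496 and 17980 in DMSO and 21207, 19765 and 21078 in abemaciclib. The sgControl libraries in abemaciclib stood far above all others, and the knockout libraries overlapped the untreated sgControl libraries. The log2 fold change on abemaciclib was 0.98 ± 0.05 (SE) in sgControl cells (DESeq2 adjusted p = 2.83e-78) and 0.24 ± 0.05 in knockout cells (adjusted p = 4.18e-05). In DMSO, knockout and sgControl cells differed by −0.13 ± 0.05 on the log2 scale (adjusted p = 0.0426). Their libraries overlapped, and this call was lost under edgeR (adjusted p = 0.099) and on leaving out any 1 library (adjusted p up to 0.194) other than the first of untreated sgControl cells, without which it was −0.17 (adjusted p = 4.98e-04). Under abemaciclib *TOB1* was 1.82-fold lower in knockout than in sgControl cells (−0.86 ± 0.05 on the log2 scale, adjusted p = 2.53e-61). In the order of levels, knockout cells in abemaciclib and sgControl cells in DMSO were neighbours whose difference did not pass the test after adjustment (log2 difference 0.11 ± 0.05, unadjusted 95% interval 0.01 to 0.21, adjusted p = 0.0657), and their libraries overlapped.

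*TOB2*, the closest relative of *TOB1*, lies on chromosome 22, positions 41433494 to 41446801, minus strand. It had normalized counts of 3926.5, 4315.2 and 4125.6 in untreated sgControl cells and 6500.5, 6885.4 and 6554.9 after abemaciclib. Knockout cells had 4994.9, 5123.2 and 5050.8 in DMSO and 5814.1, 6363.7 and 6176.1 in abemaciclib. No library of one group overlapped another, with untreated sgControl cells lowest and treated sgControl cells highest. *TOB2* rose by 0.69 ± 0.05 on the log2 scale in sgControl cells (adjusted p = 5.58e-36) and by 0.27 ± 0.05 in knockout cells (adjusted p = 5.68e-06). It was 1.23-fold higher in knockout than in sgControl cells in DMSO (0.29 ± 0.05, adjusted p = 7.46e-07). Under abemaciclib the difference was −0.12 ± 0.05 (adjusted p = 0.048), a call lost on leaving out any 1 library (adjusted p up to 0.251) other than the first of untreated sgControl cells and the second of treated knockout cells. With total-count size factors the *TOB2* difference was −0.01 (adjusted p = 0.962). The call was lost under 16 of the 20 alternatives, edgeR among them.

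*BTG2*, a gene known as an immediate early and p53 target, encodes a short BTG protein that activates deadenylation. It lies on chromosome 1, positions 203305491 to 203309602, plus strand. Its normalized counts were 4066.2, 3756.4 and 4059.4 in untreated sgControl cells and 6379.8, 7816.2 and 7939.8 after abemaciclib. Knockout cells had 5631.5, 5297.3 and 5617.0 in DMSO and 7677.0, 7516.7 and 7635.7 in abemaciclib. Untreated sgControl cells were lowest and the treated groups of both genotypes overlapped, with the first treated sgControl library below the others of its group. *BTG2* rose by 0.90 ± 0.08 on the log2 scale in sgControl cells (adjusted p = 1.48e-29) and by 0.46 ± 0.08 in knockout cells (adjusted p = 5.03e-08). It was 1.39-fold higher in knockout than in sgControl cells in DMSO (0.48 ± 0.08, adjusted p = 1.51e-08). Under abemaciclib the genotypes differed by 0.04 ± 0.08 (95% interval −0.11 to 0.20, adjusted p = 0.663).

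*BTG1*, the partner of *BTG2* in its branch of the family, lies on chromosome 12, positions 92140278 to 92145846, minus strand. Its normalized counts had the narrowest range of the 6 genes, from 1592.8 to 2163.4 over all libraries. They were 2163.4, 1831.5 and 1732.4 in untreated sgControl cells and 1592.8, 1657.8 and 1630.6 after abemaciclib. Knockout cells had 1960.5, 1939.1 and 2008.7 in DMSO and 1930.9, 1748.9 and 1756.1 in abemaciclib. The treated sgControl libraries were the lowest of all, and the untreated sgControl libraries spanned those of both knockout groups. *BTG1* fell by 0.23 ± 0.08 on the log2 scale in sgControl cells (adjusted p = 0.0118). This call was lost without the first sgControl library in DMSO (log2 fold change −0.13, adjusted p = 0.0727) and without the first in abemaciclib (−0.21, adjusted p = 0.0564), and with total-count size factors the change was −0.35 (adjusted p = 7.80e-07). In knockout cells the change was −0.12 ± 0.08 (95% interval −0.28 to 0.04, adjusted p = 0.29). The genotypes differed by 0.05 ± 0.08 in DMSO (adjusted p = 0.707) and by 0.15 ± 0.08 in abemaciclib (95% interval −0.01 to 0.32, adjusted p = 0.1). The latter passed under 4 alternatives: total-count size factors with (0.27, adjusted p = 3.04e-04) and without mitochondrial genes (0.24, adjusted p = 0.00134), only the groups compared (0.17, adjusted p = 0.025) and without the first sgControl library in DMSO (0.15, adjusted p = 0.0155). No neighbouring groups in the order of *BTG1* levels passed the test.

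*BTG3*, a member of the TOB/BTG family that is known to bind E2F1, lies on chromosome 21, positions 17593653 to 17612945, minus strand. In sgControl cells its normalized counts were 1506.2, 1307.9 and 1285.1 in DMSO and 518.4, 482.6 and 581.4 in abemaciclib. In knockout cells they were 1683.2, 1573.3 and 1537.0 in DMSO and 1568.5, 1437.2 and 1492.8 in abemaciclib. Only the treated sgControl libraries were low, and they did not reach any other library. Of the markers of other cell types, *ACTA2* was low in the same group, at 138.5 mean normalized counts. It had 585.2 in untreated sgControl cells, and 858.1 and 838.9 in untreated and treated knockout cells. *COL1A1* went the other way, at 2903.0 against 2245.3, 1940.1 and 2611.1 in the same order of groups. The other markers of that list were barely detected. The part of these markers in the *BTG3* result was not tested. *BTG3* fell by 1.37 ± 0.09 on the log2 scale in sgControl cells (adjusted p = 2.25e-51), whereas the change in knockout cells was −0.09 ± 0.09 (95% interval −0.26 to 0.08, adjusted p = 0.477). Under abemaciclib it was 2.84-fold higher in knockout than in sgControl cells (log2 difference 1.51 ± 0.09, adjusted p = 2.64e-61). In DMSO the difference was 0.23 ± 0.09 (adjusted p = 0.0248), and this call was lost on leaving out replicate 2 (adjusted p = 0.124) or 3 (0.126) of sgControl cells or replicate 1 (0.146) or 2 (0.071) of knockout cells, all in DMSO. Treated knockout cells and untreated sgControl cells overlapped, and their difference did not pass the test (0.14 ± 0.09, 95% interval −0.03 to 0.30, adjusted p = 0.21).

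Some of these genes overlap another gene, and whether the counting used strand is not stated in the sources used here. The antisense gene *BTG3-AS1* shares 326 exonic bases with *BTG3* and had 40 to 118 raw counts, 4.82% to 12.8% of those of *BTG3*. *TOB1-AS1* shares 281 bases with *TOB1* and had 0.44% to 1.05% of its counts. *LINC01619*, on the same strand as *BTG1*, shares 503 bases and had at most 7 counts, and *BTG1-DT* was not analysed here. *TOB2*, *BTG2* and *KLF10* had no exonic overlap with another gene.

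*KLF10* was the gene whose direction differed between genotypes. It lies on chromosome 8, positions 102648784 to 102655725, minus strand. Its normalized counts were 2061.0, 2134.7 and 2184.7 in untreated sgControl cells and 1718.9, 1873.9 and 1968.9 after abemaciclib. Knockout cells had 2273.4, 2176.0 and 2146.3 in DMSO and 3460.8, 3578.8 and 3465.8 in abemaciclib. The treated knockout libraries lay above all others, the untreated groups overlapped and the treated sgControl libraries were lowest. *KLF10* fell by 0.20 ± 0.06 on the log2 scale in sgControl cells (adjusted p = 0.00292) and rose by 0.67 ± 0.06 in knockout cells (adjusted p = 1.49e-26). With total-count size factors the *KLF10* change in sgControl cells was −0.33 (adjusted p = 2.99e-04). Without the first sgControl library in abemaciclib it was −0.14 (adjusted p = 0.0422). In DMSO the genotypes differed by 0.05 ± 0.06 (95% interval −0.07 to 0.17, adjusted p = 0.597). Under abemaciclib *KLF10* was 1.89-fold higher in knockout cells (0.92 ± 0.06, adjusted p = 6.72e-51), where the summed markers of other cell types were also highest. Of these markers, *ACTA2* was 2.60 ± 0.13 higher on the log2 scale than in treated sgControl cells (adjusted p = 3.11e-82). *COL1A1* went the other way (−0.15 ± 0.07, adjusted p = 0.0366), and the other markers were barely detected. On abemaciclib in knockout cells, *COL1A1* rose by 0.43 ± 0.07 (adjusted p = 4.19e-09) and *ACTA2* changed by −0.03 ± 0.12 (adjusted p = 0.881). The part of those markers in the *KLF10* results was not tested.

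Whether the drug response depended on *RB1* was asked by the interaction, the log2 fold change in knockout cells minus that in sgControl cells. It passed the test for 5 of the 6 genes, 2 positive and 3 negative, where 21.1% of all genes tested were called positive and 20.3% negative. The responses of the induced family members were smaller without *RB1*: the interaction was −0.74 ± 0.07 for *TOB1* (adjusted p = 1.37e-22), −0.43 ± 0.11 for *BTG2* (adjusted p = 3.44e-04) and −0.41 ± 0.08 for *TOB2* (adjusted p = 4.27e-07). With total-count size factors, which shifted the median interaction of all genes by 0.14, the value for *BTG2* was −0.30 and no longer passed (adjusted p = 0.0629). The positive interactions were 1.28 ± 0.12 for *BTG3* (adjusted p = 1.46e-23), whose fall was seen with *RB1* intact, and 0.87 ± 0.09 for *KLF10* (adjusted p = 6.60e-23). *BTG1* had an interaction of 0.11 ± 0.12 (95% interval −0.12 to 0.34, adjusted p = 0.505), which passed with total-count size factors (0.24, adjusted p = 0.0359). All interactions and both responses share libraries, and so are not independent of each other.

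**Figure D3:**
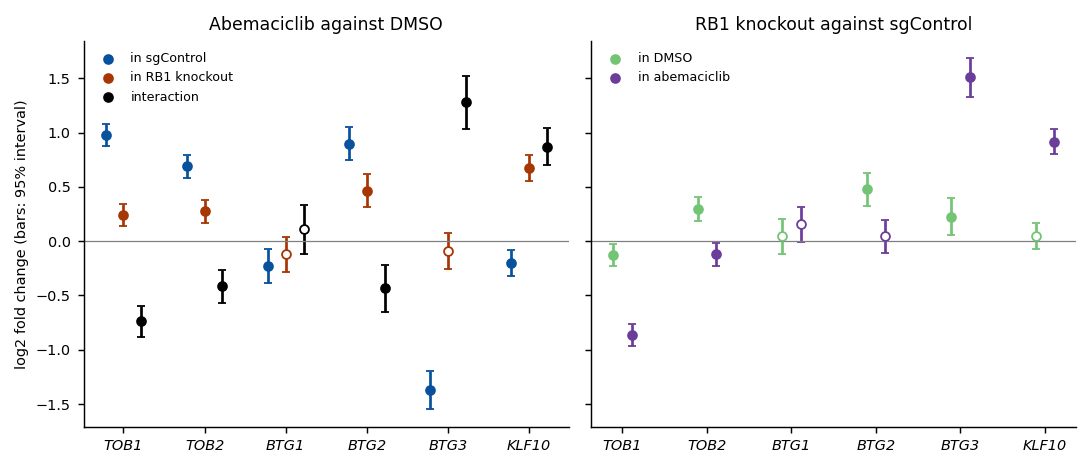
Log2 fold changes of the 6 genes with 95% intervals, for abemaciclib against DMSO in each genotype and their interaction (left) and for *RB1* knockout against sgControl in each treatment (right); filled points have an adjusted p-value under 0.05 and open points do not. *TOB1*, *TOB2* and *BTG2* sit above 0 in both genotypes with negative interactions, while *BTG3* at −1.37 in sgControl cells and *KLF10* at 0.67 in knockout cells have positive ones.

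Genotype alone was compared in DMSO and again under abemaciclib. In DMSO, 3 of the 6 genes were higher and 1 lower in knockout cells, where 19.2% of all genes tested were called higher and 18.2% lower. The higher genes were *BTG2*, *TOB2* and *BTG3*, and the count of 4 calls was 2 on leaving out, in turn, each of the 4 DMSO libraries named for *BTG3*. Under abemaciclib, *BTG3* and *KLF10* were higher and *TOB1* and *TOB2* lower, where 28.5% of all genes tested were called higher and 27.4% lower. Of these calls, that of *TOB2* was lost under 16 of 20 alternatives. For the order of levels, treated knockout cells were also set against untreated sgControl cells: 3 of the 6 genes (*BTG2*, *KLF10* and *TOB2*) passed the test, with 42.1% of all genes called in either direction. Untreated knockout cells set against treated sgControl cells gave 6 calls of 6, with 53.2% of all genes called.

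The remaining family member, *BTG4*, known for its role in oocytes, was barely detected. It had 5, 1 and 3 raw counts in untreated sgControl cells and 0, 0 and 1 after abemaciclib, and 10, 6 and 2 in knockout cells in DMSO and 9, 6 and 9 in abemaciclib. The difference between genotypes under abemaciclib passed the test (adjusted p = 0.00215), and no fold change is given at such counts.

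The CCR4–NOT subunits, to which TOB and BTG proteins bind, mostly fell or did not pass on abemaciclib in sgControl cells: 2 of 11 rose, 6 fell and 3 did not pass, with a median log2 fold change of −0.23, where 25.0% of all genes tested were called higher and 24.8% lower. In knockout cells 2 rose, 1 fell and 8 did not pass (median 0.05), where the shares of all genes were 14.9% and 15.1%. Of the interactions of the subunits, 6 were positive and 2 negative, with a median of 0.21 against 0.026 over all genes tested, of which 21.1% were called positive and 20.3% negative. *CNOT6L*, one of the catalytic deadenylase subunits, fell by 0.84 ± 0.07 on the log2 scale in sgControl cells (adjusted p = 2.17e-28) and rose by 0.24 ± 0.07 in knockout cells (adjusted p = 0.00474), an interaction of 1.08 ± 0.10 (adjusted p = 4.01e-24). *CNOT4*, a RING-type ubiquitin ligase associated with the complex, rose by 0.37 ± 0.09 in sgControl cells (adjusted p = 5.78e-05) and had the interaction −0.32 ± 0.12 (adjusted p = 0.0254). Between genotypes, 3 subunits were higher and 4 lower in knockout cells in DMSO (19.2% and 18.2% of all genes tested), and 4 were higher and 1 lower in abemaciclib (28.5% and 27.4% of all genes).

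Of 5 other deadenylation factors and poly(A)-binding proteins, 1 rose and 4 did not pass in sgControl cells (25.0% and 24.8% of all genes called higher and lower), and 1 rose and 2 fell in knockout cells (14.9% and 15.1%). *PABPC1*, the major cytoplasmic poly(A)-binding protein gene, rose by 0.38 ± 0.07 in sgControl cells (adjusted p = 1.01e-06) and by 0.27 ± 0.07 in knockout cells (adjusted p = 0.00116). *PARN*, which encodes a poly(A)-specific ribonuclease, had the single interaction that passed in the list, −0.28 ± 0.08 (adjusted p = 9.17e-04), where 20.3% of all genes were called negative. In knockout cells 2 genes of the list were higher and 1 lower in DMSO (19.2% and 18.2% of all genes), and 1 was higher and 1 lower in abemaciclib (28.5% and 27.4%).

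TGF-beta and SMAD signalling genes, the pathway that induces *KLF10* and in which TOB proteins have been placed as SMAD partners, moved both ways. In sgControl cells 6 of 17 rose, 6 fell and 5 did not pass (median −0.07), against 25.0% of all genes called higher and 24.8% lower. In knockout cells 4 rose, 2 fell and 11 did not pass (median 0.004), against 14.9% and 15.1% of all genes. Their interactions were positive for 6 genes and negative for 5 (21.1% and 20.3% of all genes). *TGFBR3*, which encodes the co-receptor betaglycan, rose by 3.46 ± 0.19 on the log2 scale in sgControl cells (adjusted p = 1.20e-71) and by 0.55 ± 0.20 in knockout cells (adjusted p = 0.0235), an interaction of −2.91 ± 0.28 (adjusted p = 1.86e-24). *SMAD6*, an inhibitory SMAD, fell by 1.05 ± 0.12 in sgControl cells (adjusted p = 2.49e-18) and had an interaction of 0.87 ± 0.16 (adjusted p = 4.17e-07). The ligand gene *TGFB3* and the receptor gene *TGFBR2*, chosen after their values were seen, had interactions of −1.09 ± 0.10 (adjusted p = 1.23e-28) and 1.25 ± 0.34 (adjusted p = 7.49e-04). In knockout cells 6 genes of the list were higher and 3 lower in DMSO (19.2% and 18.2% of all genes), and 8 were higher and 6 lower in abemaciclib (28.5% and 27.4%).

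Among relatives of *KLF10* and the SIN3 co-repressors, 3 of 7 rose and 3 fell in sgControl cells, where 25.0% of all genes were called higher and 24.8% lower. In knockout cells 2 rose and none fell, against 14.9% and 15.1% of all genes. *KLF11*, the nearest relative of *KLF10* and also TGF-beta-inducible, had the same pair of directions as *KLF10*, with a fall of 0.85 ± 0.10 on the log2 scale in sgControl cells (adjusted p = 7.45e-16) and a rise of 0.67 ± 0.10 in knockout cells (adjusted p = 3.23e-10). Its interaction was 1.51 ± 0.14 (adjusted p = 2.69e-25). *KLF9* rose by 0.45 ± 0.09 and 0.42 ± 0.09 in the respective genotypes (adjusted p = 2.43e-06 and 4.19e-05), with an interaction of −0.03 ± 0.13 (adjusted p = 0.882). *SIN3B*, a co-repressor scaffold, had an interaction of −0.34 ± 0.11 (adjusted p = 0.00547), 1 of 2 negative and 2 positive interactions in this list (20.3% and 21.1% of all genes). In DMSO 1 of 6 tested was higher and 1 lower in knockout cells (19.2% and 18.2% of all genes). In abemaciclib 5 of 7 were higher and 1 lower, where 28.5% of all genes were called higher and 27.4% lower, and the higher genes included *KLF14* with a mean normalized count of 5.2.

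**Figure D4:**
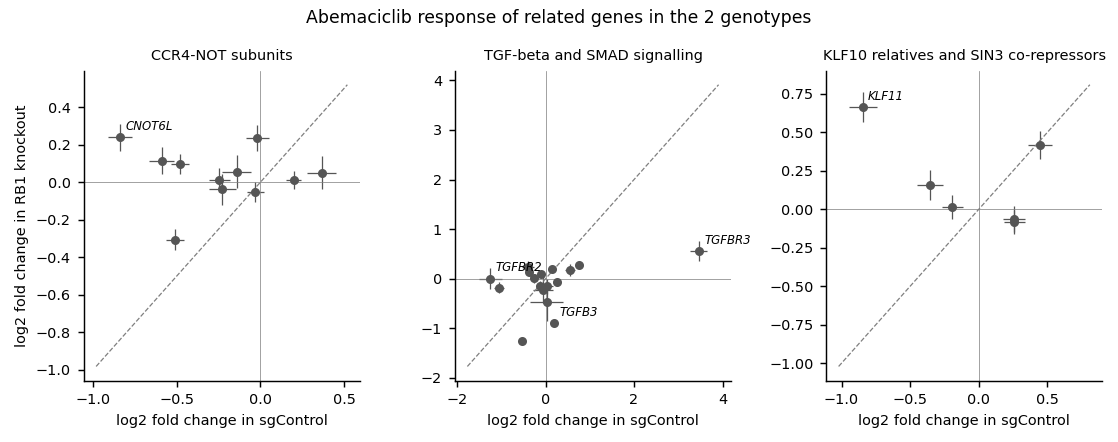
Abemaciclib response in sgControl cells (x axis, log2 fold change) and in *RB1*-knockout cells (y axis) of the CCR4–NOT subunits, the TGF-beta and SMAD genes and the relatives of *KLF10* with SIN3 co-repressors; bars are standard errors, the dashed line marks equal responses, genes with a mean normalized count under 10 are left out and names are given where the responses differ by more than 1. *CNOT6L* (−0.84 and 0.24) and *KLF11* (−0.85 and 0.67) lie on opposite sides of 0 in the 2 genotypes, and *TGFBR3* (3.46 and 0.55) lies far below the line.

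The genes whose log2 normalized counts were most like those of each gene over the 12 libraries were listed among 11874 genes, as a description only. Because the libraries fall into 4 groups, these correlations mostly reflect the group means. For *TOB1* they were *HOXC4*, *ARSG* and *RAB5B* (Pearson correlation 0.9968, 0.9952 and 0.9952), and for *TOB2* they were *ARHGAP26*, *SMAD3* and *NPC1* (0.9902, 0.9877 and 0.9867). *SMAD3*, a receptor-activated SMAD of the TGF-beta list, was thus among the 3 genes with the pattern nearest to *TOB2*. *BTG2* was followed most closely by *TYK2*, *CLDN1* and *ZNF543* (0.9775, 0.9754 and 0.9729). *BTG3* was matched by *FABP5*, *MEST* and *ACAT2* (0.9964, 0.9958 and 0.9956), and *KLF10* by *APOLD1*, *SLC25A25* and *CDH2* (0.9868, 0.9866 and 0.985). *BTG1*, with its narrow range, had the lowest values, with *NDUFS4*, *GADD45GIP1* and *APRT* (0.9412, 0.938 and 0.9375). Ranked by Spearman correlation, *TOB1* kept 2 of its 3 genes and the other 5 kept 0.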

How the data were processed

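Gene-level raw counts for 12 RNA-sequencing libraries of ZR-75-1 cells were deposited by the authors, who trimmed the reads with BBDuk, aligned them to hg38 with STAR 2.7.5b and counted them with featureCounts 2.0.1 against GENCODE. The strand and multi-mapping settings are not given in the sources used here. Each library's group and replicate number were read from its title. Of 60656 rows, 44 without a gene name were left out; they held 0.0% of the counts. The members and the lists of related genes were chosen with earlier results of these data known.

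The whole table was fitted with DESeq2 1.42.0 in R 4.3.3 by a model with 4 group levels, with median-of-ratios size factors, no shrinkage and two-sided Wald tests. Benjamini–Hochberg adjustment ran over all genes left by independent filtering, and adjusted p-values are DESeq2's except where edgeR is named. The tests were also run on simulated counts. Those had far fewer changed genes than were called here and no outlying library. That run therefore does not measure how the tests behave on these data. Normalized counts are raw counts divided by size factors. Levels per kilobase used the merged exons of GENCODE release 44. A mean normalized count of at least 100 was required of genes named from lists, which were those with the largest called change in each direction in the sgControl response and the interaction, 1 per direction. *TGFB3*, *TGFBR2* (mean normalized count 92.4) and *KLF14* were named outside this rule, after their values were seen. The same minimum held for the 3 genes most like each member, by log2(normalized count + 1).

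Alternatives were edgeR 4.0.16 (quasi-likelihood test), other size factors, a filter of 10 counts in 3 samples, no independent filtering, only the groups compared, a replicate block and leaving out each library. What libraries with the same replicate number share is not stated in the labels. Same-numbered libraries deviated together in the comparison of genotypes under abemaciclib (correlations of 0.15, 0.26 and 0.11), which by the rule used here pairs them; in the other comparisons this did not hold for every number. Promoter windows came from RefSeq (GRCh38.p14). Depth, 39907318 to 81636393 counts per library, gave each of the 6 genes at least 481 counts in every library.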

Additional observations from a re-analysis of the deposited data

Results flagged for a closer look

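For 5 of the 6 genes the interaction test in DESeq2 gave different drug responses in the 2 genotypes. Of all genes tested, 21.1% were called positive and 20.3% negative. The interaction on the log2 scale was −0.74 for *TOB1*, −0.41 for *TOB2*, −0.43 for *BTG2*, 1.28 for *BTG3* and 0.87 for *KLF10*. With total-count size factors the *BTG2* call was lost (adjusted p = 0.0629). For *KLF10* the responses had opposite signs, −0.20 with *RB1* intact and 0.67 in its absence. Groups of 3 libraries were not searched for outlying values by a formal rule.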

How the results depend on the processing

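Each of the 30 log2 fold changes of the 6 genes in the 5 main comparisons was recomputed under 19 or 20 alternatives. Of the 594 values, 545 kept their direction and their side of the threshold, 42 lost a call, 5 gained one and 2 turned sign, and 21 of the 30 results were the same under every alternative run. The count of genes called between genotypes in DMSO, 4, was 2 with only the groups compared and ranged from 2 to 4 when 1 library was left out. In abemaciclib the count, also 4, ranged from 3 to 5 when 1 library was left out and was 3 under edgeR. The uncalled *BTG1* difference in DMSO ranged from −0.0219 to 0.1436 with 1 library left out, and the uncalled *BTG2* difference in abemaciclib from −0.0552 to 0.0964. Adding the replicate block gave 6, 4, 5, 3 and 4 calls in the sgControl response, the knockout response, the interaction and the genotype comparisons in DMSO and in abemaciclib. The call it lost was that of *TOB1* in DMSO (−0.13, adjusted p = 0.0718), and it changed no other call. In that comparison the deviations of same-numbered libraries had correlations of −0.25, −0.01 and 0.08, and what these libraries share is not stated. Total-count size factors moved the median of all genes by −0.13 in the sgControl response (4532 higher and 6779 lower, against 5675 and 5630), by 0.14 in the interaction (5467 and 3098, against 4417 and 4251) and by 0.12 between genotypes in abemaciclib. No count over all genes moved by more than 1.5 times. The cause of these changes was not tested.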
